A study of Danio rerio with 6 samples.

Results

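The ligand-gated ion channels through which neurons and muscle fibres receive fast chemical signals were examined in zebrafish embryos at 72 hours post-fertilization (hpf). They were the gene IDs whose symbols begin as subunits of GABA-A, glycine, AMPA, kainate, NMDA and nicotinic acetylcholine receptors do. The rule went by name and not by level or change, but this group of genes was chosen with earlier results of these data known. The rule found 81 of the 32520 gene IDs in the count table, under 66 symbols. They comprised 15 GABA-A, 6 GABA rho, 7 glycine, 8 AMPA, 6 kainate, 13 NMDA, 6 muscle-type nicotinic and 20 neuronal nicotinic subunit genes. A GABA-A symbol needed a digit after its subunit letter, so symbols without one, such as gabrd, could not match. The GABA-A genes here are therefore alpha, beta and gamma subunits only. As 30 of the IDs share their symbol with another ID, usually the other copy of a duplicated zebrafish gene, these are given with their ID, and symbols are printed as the name table has them, 57 of them in human style.

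Bulk poly-A RNA-seq of whole embryos gave 6 libraries, 3 wild-type and 3 *miR-34a-/-*, with 30 embryos pooled for each. Both genotypes were lines in the *casper* background, a strain without most pigment cells. In the mutant, CRISPR/Cas9 had deleted the gene for miR-34a, a microRNA induced by p53. The mutant was bred on its own as homozygotes, and its wild-type controls were no siblings and may differ from it at other loci, which cannot be told apart from the deletion. The labels name no treatment, and nothing in them says that the libraries of a genotype came from separate clutches, so p-values measure the spread between these libraries only. In a whole-embryo library, fewer cells of a type and less RNA per cell cannot be told apart.

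Each of these receptors is an assembly of several subunits around an ion pore. GABA-A, glycine and nicotinic receptors are pentamers, of which GABA and glycine channels pass chloride and mostly silence a mature neuron, while nicotinic channels pass cations and excite it. AMPA, kainate and NMDA receptors are glutamate-gated tetramers, and which subunits a cell makes sets the speed, ion selectivity and anchoring of the channel. By this stage the larva hatches and swims, which needs acetylcholine receptors at the neuromuscular junction and glutamate and glycine receptors in the hindbrain and spinal cord.

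Total counts per library were between 10273343 and 16369150, and the receptor genes took between 0.104% and 0.133% of them. Values are in CPM, counts relative to TMM-scaled library sizes, which compare libraries and not genes, since gene lengths were not used. MIR34A, the deleted gene, was at 0 counts in wild-type and mutant libraries alike, where up to 3 counts per library may be missed, so it could not serve to check the genotype labels. No receptor gene was at 0 in all libraries, and 72 of the 81 passed the filter on low counts. The 9 that were not tested had between 10 and 58 counts over the 6 libraries together, and they were GABRA4, gabra3, gabrg3, GABRA6 (ENSDARG00000058736), GABRB2 (ENSDARG00000100032), CHRNB1 (ENSDARG00000022532), chrna4a, chrna9b and chrna10b. The tissues that hold these channels were represented: 26 genes of neurons summed to 3234 to 3760 CPM and 20 genes of fast muscle to 77068 to 92578 CPM, and none of either list was at 0 throughout.

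Only 1 of the 72 tested receptor genes differed between genotypes in the quasi-likelihood test of edgeR at an adjusted p under 0.05, which is 1.39% of them, against 2.6% of all 19240 genes tested. It was CHRNE, the epsilon subunit of the muscle acetylcholine receptor, which was lower in *miR-34a-/-* and also changed by more than 1.5-fold, as 1.88% of all genes did. At an unadjusted p under 0.05, 11 receptor genes were lower and 2 higher, together 18.1% of those tested, beside 15.3% of all genes, 7.2% lower and 8.14% higher. The genotypes were fully separated in 14 receptor genes (19.4%), with all mutant values lower in 12 (16.7%) and higher in 2 (2.78%). Of all genes a similar 21.2% were separated, 10.2% lower and 11.0% higher. The median log2 fold change of the receptor genes was -0.08, beside -0.01 over all genes tested, and 43 of 72 were below 0 (59.7%, beside 51.9% of all genes). Under other tools few more passed. The DESeq2 Wald test gave 2 receptor genes beside 2.12% of all genes, edgeR without a filter 2 beside 2.7%, and the likelihood ratio test of edgeR 3 beside 5.05%, of which 2 changed by more than 1.5-fold (3.26% of all genes).

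The precision of these comparisons was moderate. The common biological coefficient of variation was 10.9%, and receptor genes drew fewer reads than most genes, with a median of 6.25 CPM beside 13.7 CPM over all genes tested. The 95% interval of the fold change lay within 2-fold either way for 57 of the 72 genes and within 1.5-fold for 31. For the others a change of that size lay inside the interval.

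**Figure D1:**
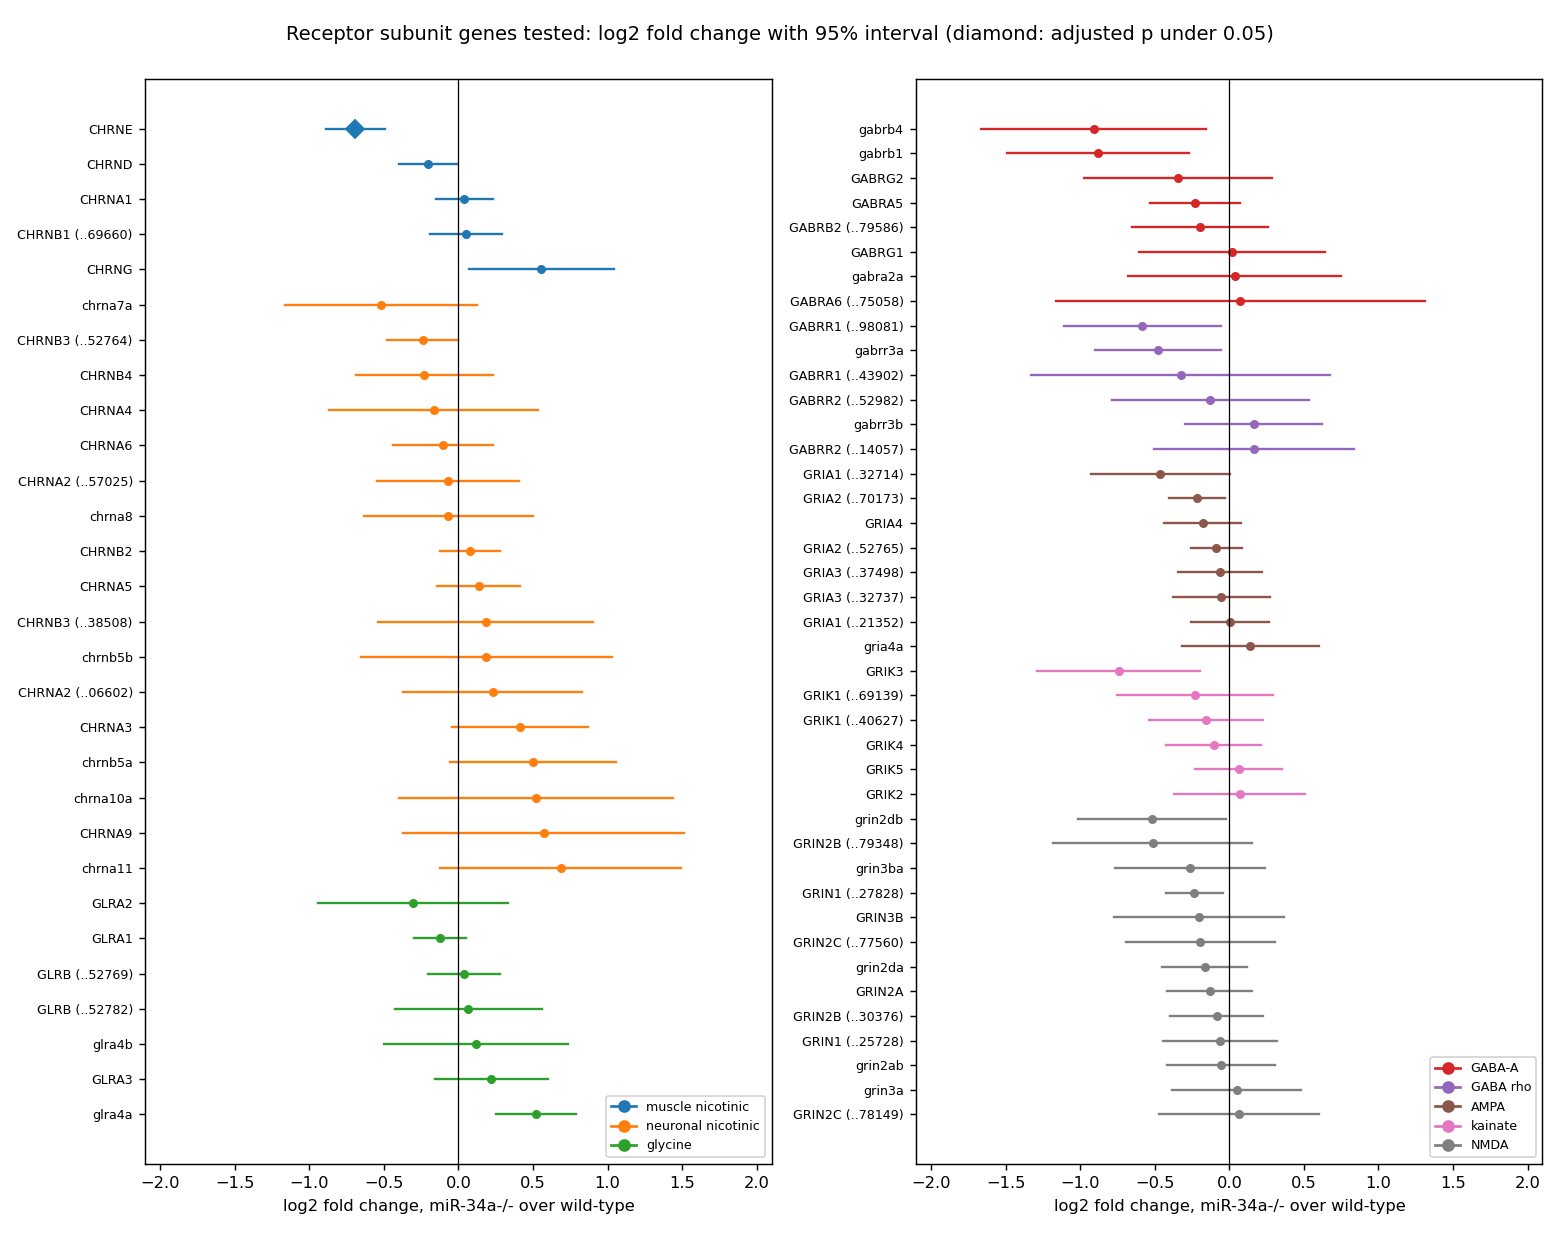
Log2 fold change (*miR-34a-/-* minus wild-type) of 70 of the 72 receptor genes tested, by receptor class, with points for the fitted values and bars for their 95% intervals. CHRNE, at -0.69, was the gene that passed the test, and the points of most classes lie on both sides of 0.

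The muscle-type nicotinic receptor was examined first, because it held the one gene that passed. In mammals this receptor joins 2 alpha1 subunits to 1 beta1, 1 delta and either 1 gamma or 1 epsilon subunit. There gamma belongs to the embryonic receptor and epsilon to the adult one. CHRNE (ENSDARG00000034307) was at 42.3, 44.7 and 48.3 CPM in wild-type replicates 1, 2 and 3, and at 25.5, 28.4 and 29.7 CPM in the mutant replicates. All mutant libraries were thus under all wild-type libraries, with means of 45.1 ± 2.99 and 27.8 ± 2.18 CPM (SD, n = 3 each). CHRNE fell by 38.0%. Its log2 fold change was -0.69 ± 0.09 (SE; 95% interval -0.89 to -0.49), and the adjusted p of edgeR was 0.00308. It passed in each of the 13 alternative analyses, where the adjusted p-value was at most 0.0294.

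CHRNG, the gamma subunit that in mammals occupies the same place in the embryonic receptor, lay in the other direction. It was at 5.77, 5.58 and 4.09 CPM in wild-type and at 5.61, 9.19 and 8.06 CPM in mutant libraries. Mutant replicates 2 and 3 were above every wild-type library, while mutant replicate 1 lay among them. The log2 fold change was 0.56 ± 0.22 (SE), which did not pass (unadjusted p = 0.0296, adjusted p = 0.264, edgeR). Without mutant replicate 1 it was 0.72 and passed at an adjusted p of 0.0153 (edgeR), in a fit where 15.6% of all genes passed. CHRNG passed in 2 of the 13 alternatives.

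The subunits common to both forms of the receptor did not pass the test or were not tested. CHRNA1, the alpha1 subunit that carries the acetylcholine site and without which zebrafish larvae are paralysed, was at 43.7, 46.6 and 53.3 CPM in wild-type and at 50.1, 48.8 and 48.3 CPM in mutant libraries. The mutant values lay inside the wild-type range, and the log2 fold change was 0.04 with a 95% interval of -0.15 to 0.23. CHRNB1 (ENSDARG00000069660), the beta1 subunit, was at 19.8, 21.7 and 19.4 CPM in wild-type and at 18.5, 22.2 and 22.2 CPM in mutant libraries, a log2 fold change of 0.05 ± 0.11 (SE). Its other copy, CHRNB1 (ENSDARG00000022532), had 3, 4 and 4 counts in wild-type and 0, 0 and 1 in mutant libraries, too few to be tested.

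CHRND, the delta subunit, was at 29.3, 31.4 and 30.1 CPM in wild-type and at 24.6, 26.5 and 27.6 CPM in mutant libraries. The genotypes did not overlap, but the difference was small, at -0.20 ± 0.09 (SE) on the log2 scale (unadjusted p = 0.0398, adjusted p = 0.296). CHRND passed in none of the 13 alternatives.

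**Figure D2:**
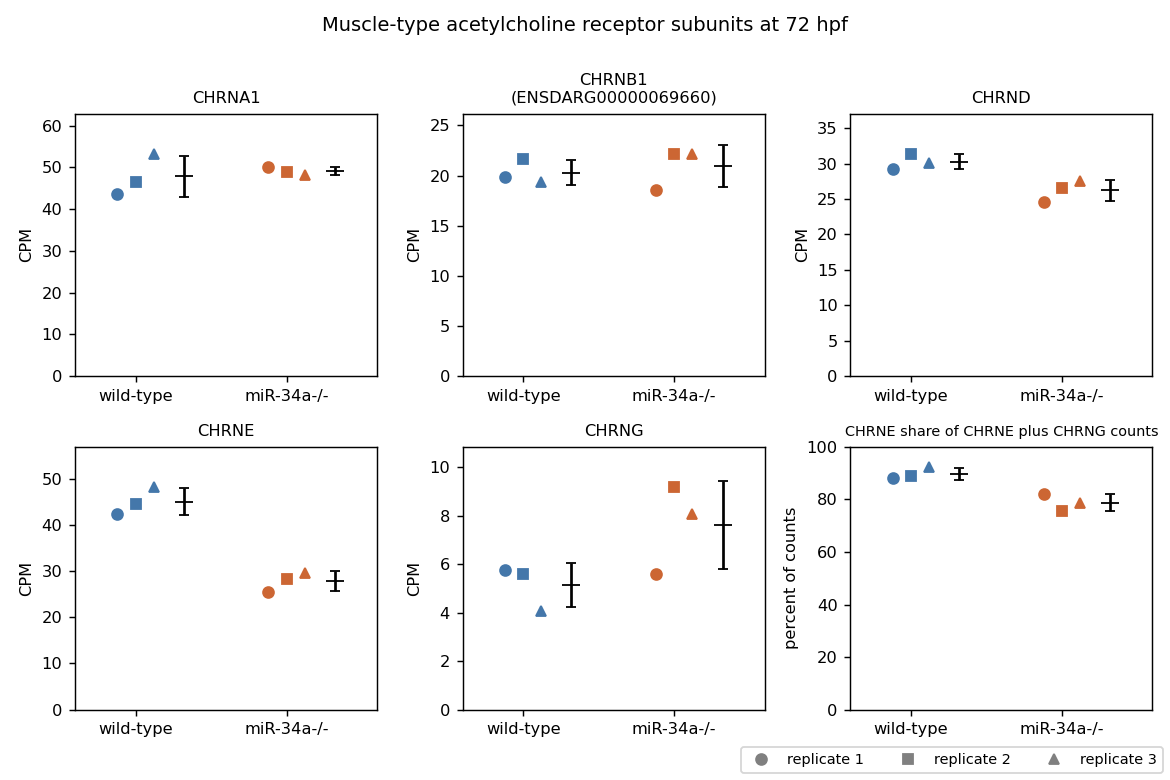
CPM (vertical axes, from 0) of the muscle-type nicotinic subunits in the 3 wild-type and 3 *miR-34a-/-* libraries, with markers for replicates and bars for the mean ± SD, and in the last panel the percentage of CHRNE and CHRNG counts that came from CHRNE. CHRNE was between 42.3 and 48.3 CPM in wild-type and between 25.5 and 29.7 CPM in *miR-34a-/-*, while CHRNA1 and CHRNB1 overlapped between genotypes.

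The balance of the epsilon and gamma subunits was then taken within each library, which removes the scaling between libraries. CHRNE took 88.0%, 88.9% and 92.2% of the CHRNE and CHRNG counts in wild-type and 81.9%, 75.5% and 78.7% in mutant libraries, with means of 89.7 ± 2.21% and 78.7 ± 3.21% (SD, n = 3). The ranges did not overlap. These are shares of reads, not of molecules, and they rest on the same CHRNE counts as the comparison above. For each CHRNA1 count, wild-type libraries held 0.945 ± 0.034 CHRNE counts and mutant libraries 0.568 ± 0.055, and of all muscle-type counts CHRNE took 30.3 ± 0.69% and 21.1 ± 0.70%.

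Proteins of the endplate and of the muscle fibre were read beside these values. RAPSN, which anchors the receptor under the nerve ending, had a log2 fold change of -0.10 ± 0.11 (SE), and musk, the receptor kinase that starts its clustering, of 0.14 ± 0.17. ACHE, which degrades acetylcholine, was at 0.07 ± 0.06, COLQ, its collagen tail, at -0.21 ± 0.14, AGRN, the nerve-derived signal to musk, at 0.09 ± 0.08, and LRP4, the receptor of AGRN, at -0.33 ± 0.31. None of these 6 passed the test. Of 20 fast muscle genes 1 passed, beside 2.6% of all genes. It was ACTA1 (ENSDARG00000036371), a skeletal actin, higher in *miR-34a-/-* (log2 fold change 0.54 ± 0.07, SE, adjusted p = 0.00221, edgeR). At an unadjusted p under 0.05 (edgeR), 2 of the list were lower and 4 higher, beside 7.2% and 8.14% of all genes. The median of that list was 0.01. Without mutant replicate 1, 10 of the 20 passed, beside 15.6% of all genes. The list's summed level was 80741 to 81602 CPM in wild-type and 77068, 88522 and 92578 CPM in mutant libraries.

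The genes beside CHRNE were also read, in the order of the RefSeq annotation. Only genes whose symbol is not shared by another gene ID and is found in that annotation could be placed, so nearer genes may be missing. Among the 5 tested genes so placed on each side of chrne, 0 of 10 passed (edgeR) and 2 had an unadjusted p under 0.05. The same numbers held for the neighbours of glra4a. Beside chrng 5 of 10 had an unadjusted p under 0.05, a larger share than the 15.3% of all genes. Of these 10, 1 passed (edgeR), beside 2.6% of all genes. It was mul2, with a log2 fold change of -0.71 (adjusted p = 0.0173, edgeR).

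The glycine receptor held the receptor gene with the next smallest p-value. Glycine receptors carry inhibition in the spinal cord and hindbrain, with alpha subunits that bind the transmitter and a beta subunit that ties the channel to the scaffold protein gephyrin. The alpha subunit glra4a (ENSDARG00000006865) was at 22.1, 29.2 and 28.5 CPM in wild-type and at 42.1, 36.0 and 35.9 CPM in mutant libraries. The genotypes did not overlap, with means of 26.6 ± 3.88 and 38.0 ± 3.56 CPM (SD, n = 3), and the libraries farthest apart were the replicates numbered 1. The log2 fold change was 0.52 ± 0.12 (SE; 95% interval 0.25 to 0.79), with an adjusted p-value of 0.0538, just above the threshold. Over the 13 alternatives the adjusted p-value ran from 0.00255 to 0.163 and 5 of them passed. Among these were the Wald test of DESeq2 (0.0155), the likelihood ratio test (0.00478) and the fit without mutant replicate 1 (0.0118). Of all genes 2.12%, 5.05% and 15.6% passed in these fits. In edgeR glra4a did not pass with the replicate block (0.148) or a mean of at least 50 counts (0.0725). Nor did it pass when any other library was left out (0.0558 to 0.163).

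The other glycine subunits overlapped between genotypes or differed little. GLRA1, an alpha subunit of spinal receptors, was at 41.7, 44.5 and 41.7 CPM in wild-type and at 36.4, 40.4 and 40.5 CPM in mutant libraries, all lower (log2 fold change -0.12 ± 0.08, SE; adjusted p = 0.489). GLRB (ENSDARG00000052769), the beta subunit with more counts, had values of 49.2, 44.2 and 43.6 CPM in wild-type and of 39.3, 51.7 and 50.1 CPM in mutant libraries. Here mutant replicate 1 was the lowest of the 6 libraries and mutant replicates 2 and 3 were the highest, and the log2 fold change was 0.04. GLRA2, GLRA3, glra4b and GLRB (ENSDARG00000052782) had log2 fold changes between -0.31 and 0.22, and none passed in any alternative.

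Within the alpha subunits of each library, glra4a took 26.8%, 32.9% and 34.1% of the counts in wild-type and 46.4%, 38.2% and 37.3% in mutant libraries. GLRA1 took 50.5%, 50.2% and 49.8% in wild-type and 40.1%, 42.9% and 42.0% in mutant libraries. Neither share overlapped between genotypes. Both are parts of the same total and rest on the same glra4a counts as the comparison above, so they are no separate results. The beta subunits took 37.0 ± 2.11% and 35.3 ± 2.97% of all glycine receptor counts, which overlapped.

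**Figure D3:**
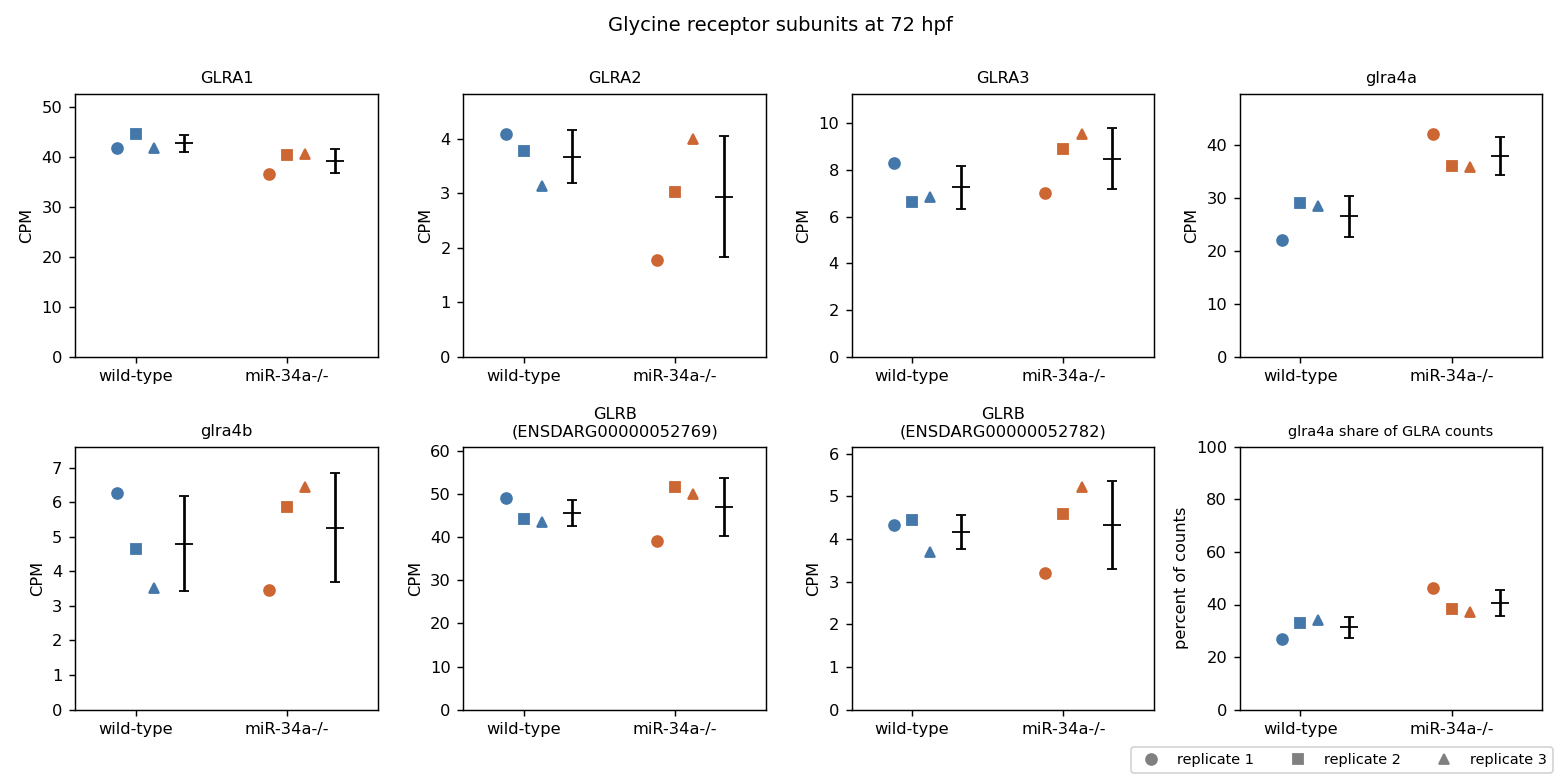
CPM (vertical axes, from 0) of the 7 glycine receptor genes in the 6 libraries, with markers for replicates and bars for the mean ± SD, and the percentage of alpha subunit counts that came from glra4a. glra4a was between 22.1 and 29.2 CPM in wild-type and between 35.9 and 42.1 CPM in *miR-34a-/-*, while both GLRB copies overlapped.

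None of the 10 tested GABA-A subunit genes passed (edgeR). At an unadjusted p under 0.05, 2 were lower, beside 7.2% of all genes. Both were beta subunits, which help to form the GABA site. gabrb1 was at 3.78, 4.64 and 5.32 CPM in wild-type and at 1.51, 2.84 and 2.97 CPM in mutant libraries. The mutant libraries were all lower, and the log2 fold change was -0.88 ± 0.27 (SE). The adjusted p was 0.152 in the quasi-likelihood test of edgeR and 0.0427 in its likelihood ratio test. In all, gabrb1 passed in 2 of the 12 alternatives that tested it. gabrb4 was at 3.53, 2.18 and 3.42 CPM in wild-type and at 2.31, 1.76 and 0.967 CPM in mutant libraries, which overlapped by 1 library. Its log2 fold change was -0.91 ± 0.34 (adjusted p = 0.233), and -1.24 without mutant replicate 1 (adjusted p = 0.0197, edgeR). That fit, in which 15.6% of all genes passed, was the only 1 of 12 alternatives in which gabrb4 passed.

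GABRB2 (ENSDARG00000079586), a beta subunit with higher CPM, was at 14.4, 13.4 and 11.2 CPM in wild-type and at 7.83, 11.6 and 14.4 CPM in mutant libraries. Mutant replicate 1 was the lowest library and mutant replicates 2 and 3 lay within the wild-type range. Its log2 fold change of -0.20 had a 95% interval of -0.65 to 0.26.

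GABA rho subunits form homomeric chloride channels best known from retinal bipolar cells. Of 6 genes 0 passed (edgeR). At an unadjusted p under 0.05, 2 were lower, beside 7.2% of all genes. GABRR1 (ENSDARG00000098081) was at 6.57, 4.45 and 4.56 CPM in wild-type and at 3.20, 4.40 and 3.03 CPM in mutant libraries (log2 fold change -0.58 ± 0.24, SE; adjusted p = 0.274). gabrr3a was at 4.71, 4.35 and 4.94 CPM in wild-type and at 3.74, 3.32 and 3.03 CPM in mutant libraries (log2 fold change -0.48 ± 0.19, adjusted p = 0.266). Mutant values were lower in all libraries for both, but for GABRR1 the replicates numbered 2 were almost equal. gabrr3b overlapped, with means of 5.65 ± 0.91 and 6.36 ± 1.34 CPM (SD, n = 3). The 24 tested genes of other retinal cells, which include bipolar markers, had a median of 0.00 on the log2 scale. Of these genes 0 had an unadjusted p under 0.05, beside 15.3% of all genes.

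AMPA receptors carry fast glutamate signals, and the GRIA2 subunit restricts their calcium entry. Of 8 AMPA genes 0 passed (edgeR) and 1 was lower at an unadjusted p under 0.05, beside 7.2% of all genes. GRIA2 (ENSDARG00000070173) was at 74.7, 63.8 and 65.6 CPM in wild-type and at 60.1, 61.7 and 54.3 CPM in mutant libraries, and its log2 fold change was -0.22 ± 0.09 (SE; adjusted p = 0.265). The other copy, GRIA2 (ENSDARG00000052765), was at 62.9, 56.5 and 56.8 CPM and at 52.0, 56.9 and 56.9 CPM, so that 2 mutant libraries lay within the wild-type range, and its log2 fold change was -0.09 ± 0.08. The mutant values of gria4a, at 13.4, 26.2 and 24.9 CPM, were spread around the wild-type values of 19.5, 20.1 and 19.2 CPM. gria4a had a log2 fold change of 0.14 (adjusted p = 0.788), and of 0.38 without mutant replicate 1 (adjusted p = 0.0168, edgeR). That fit, in which 15.6% of all genes passed, was the only 1 of 13 alternatives in which gria4a passed.

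Kainate receptors modulate transmitter release and excitability. GRIK3, a presynaptic subunit in mammals, was at 6.45, 5.11 and 5.61 CPM in wild-type and at 4.36, 3.81 and 2.32 CPM in mutant libraries. All mutant values were lower, and the log2 fold change was -0.74 ± 0.25 (SE; unadjusted p = 0.0130, adjusted p = 0.180). Without mutant replicate 1 it was -0.96 and passed (adjusted p = 0.0131, edgeR), in a fit where 15.6% of all genes passed. GRIK3 passed in 2 of the 13 alternatives. The 2 kainate genes with the highest CPM differed by less than their spread: GRIK5, a high-affinity subunit that needs a partner, averaged 15.8 ± 1.89 and 16.6 ± 1.90 CPM in wild-type and mutant libraries, and GRIK2, one such partner, 11.99 ± 1.07 and 12.5 ± 3.50 CPM (SD, n = 3). Of 6 kainate genes 0 passed (edgeR). GRIK3 was the one at an unadjusted p under 0.05, where 7.2% of all genes were lower and 8.14% higher.

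NMDA receptors need GRIN1 in every channel, with GRIN2 or GRIN3 subunits that set its kinetics. GRIN1 (ENSDARG00000027828) was at 139, 130 and 130 CPM in wild-type and at 101, 126 and 112 CPM in mutant libraries, all lower (log2 fold change -0.24 ± 0.09, SE; unadjusted p = 0.0217, adjusted p = 0.228). GRIN1 (ENSDARG00000025728) was at 152, 128 and 123 CPM in wild-type, whereas mutant replicate 1 was at 91.3 CPM and mutant replicates 2 and 3 at 160 and 135 CPM. Its log2 fold change was -0.06, and 0.13 without mutant replicate 1.

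Of 13 NMDA genes 0 passed (edgeR), and 11 had a log2 fold change below 0, beside 51.9% of all genes. Their median was -0.17, and -0.08 without mutant replicate 1, which was the lowest library in 6 of the 13. At an unadjusted p under 0.05, 2 were lower, beside 7.2% of all genes. The second gene lower at that level was grin2db, with means of 5.19 ± 0.96 and 3.68 ± 0.66 CPM in wild-type and mutant libraries (SD, n = 3; log2 fold change -0.52, adjusted p = 0.303). GRIN2A and its copy grin2ab, subunits of the maturing synapse in mammals, took 47.3 ± 1.44% and 48.4 ± 2.88% of GRIN2 counts in wild-type and mutant libraries, and the ranges overlapped.

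Neuronal nicotinic receptors combine alpha and beta subunits in neurons of the habenula, retina, autonomic ganglia and spinal cord, and alpha9 and alpha10 serve hair cells. Of 17 tested genes 0 passed (edgeR), and the median log2 fold change was 0.14. At an unadjusted p under 0.05, 1 was lower and 0 higher, beside 7.2% and 8.14% of all genes. CHRNB3 (ENSDARG00000052764), an accessory beta subunit, was at 15.9, 17.8 and 17.8 CPM in wild-type and at 14.2, 14.3 and 14.9 CPM in mutant libraries. The genotypes did not overlap (log2 fold change -0.24 ± 0.11, SE; adjusted p = 0.315). CHRNB2, the beta subunit of the main brain receptor, averaged 21.9 ± 0.71 and 23.0 ± 0.99 CPM, and the 95% interval of its log2 fold change of 0.08 was -0.13 to 0.28.

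CHRNA5, an accessory alpha subunit, was the other receptor gene beside glra4a whose mutant values were all higher, at 9.88, 9.78 and 9.99 CPM beside 8.55, 9.09 and 9.41 CPM in wild-type. The difference was small, with a log2 fold change of 0.14 (adjusted p = 0.643). The largest fitted rise among the 72 tested receptor genes was that of chrna11, at 0.68, where mutant replicate 3 lay below every wild-type library and the adjusted p was 0.401.

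Sums over each class were compared next, since subunits assemble with one another. Muscle-type counts summed to 149 ± 7.33 CPM in wild-type libraries and to 132 ± 6.48 CPM in mutant libraries (SD, n = 3), a ratio of 0.884, and no mutant library reached the wild-type range. The fall in CHRNE, from a mean of 45.1 to 27.8 CPM, was about as large as that gap. The other subunits differed in both directions. The ratios of mutant to wild-type were 0.877 for GABA-A, 0.879 for GABA rho, 0.937 for AMPA, 0.939 for kainate, 0.910 for NMDA, 1.02 for neuronal nicotinic and 1.08 for glycine subunits. In each of these 7 classes the ranges of the genotypes overlapped.

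Replicate 1 of each genotype weighed on most of these sums. Mutant replicate 1 stood at 73.3% to 98.9% of the wild-type mean in the 8 classes, and it was the lowest of the 6 libraries in 36 of the 72 tested receptor genes (50.0%), beside 21.1% of all genes. Wild-type replicate 1 was the highest library in 29 (40.3%), for which no share over all genes was computed. Without mutant replicate 1 the ratios ran from 0.909 to 1.12, and the median log2 fold change of the receptor genes was 0.01. Leaving out wild-type replicate 1 instead gave 0.940 for GABA-A, 0.978 for GABA rho, 0.985 for AMPA, 0.984 for kainate and 0.956 for NMDA subunits. The muscle-type ratio was then 0.861, farther from 1, and the median of the receptor genes was 7.6e-05. In mutant replicate 1 the general neuronal genes summed to 3234 CPM beside 3583 to 3760 CPM in the other 5 libraries. Photoreceptor genes summed to 660 CPM in mutant replicate 1, beside 2070 and 2160 CPM in mutant replicates 2 and 3. In wild-type they summed to 2072, 1501 and 1055 CPM. The part of mutant replicate 1, and of the share of neuronal or retinal RNA in it, in the receptor values was not tested beyond the fits without it and with a photoreceptor term.

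**Figure D4:**
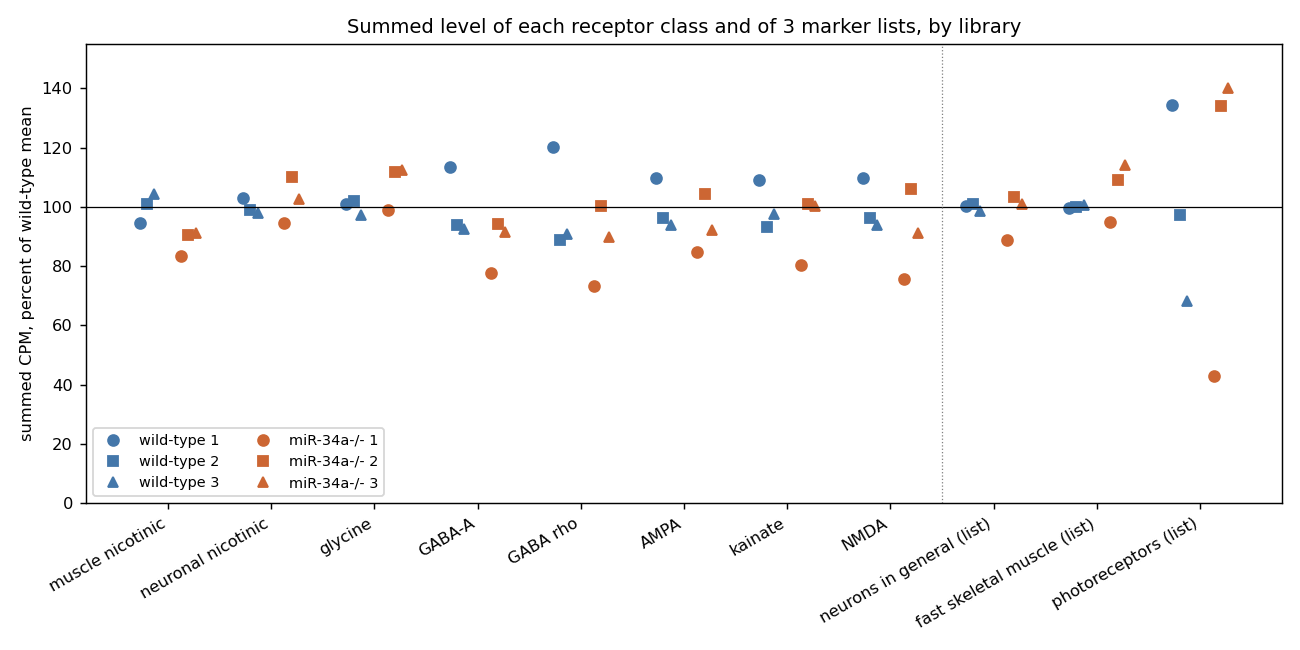
Summed CPM of each receptor class, and of the neuron, fast muscle and photoreceptor lists to the right of the dotted line, in each library as a percentage of the wild-type mean, with blue markers for wild-type and orange markers for *miR-34a-/-*. Mutant replicate 1 lay at 73.3% to 98.9% in the 8 classes, and muscle-type nicotinic subunits were the receptor class without overlap between genotypes.

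Leaving out mutant replicate 1 raised the number of receptor genes that passed from 1 to 7 of 74 tested (9.46%), while over all genes it rose from 2.6% to 15.6%. At 1.5-fold 5 were called, beside 7.74% of all genes. CHRNE was at -0.63 on the log2 scale in that fit (adjusted p = 0.000191), CHRNG at 0.72, glra4a at 0.45, gria4a at 0.38, GRIK3 at -0.96, gabrb4 at -1.24 and gabra3 at -1.58 (adjusted p = 0.0483, edgeR). gabra3, an alpha subunit, had 7, 6 and 3 counts in the mutant libraries and 18, 9 and 13 in wild-type, and had been too low to test with all 6. Its change therefore entered only through the filter, which its higher wild-type counts let it pass. It is counted among the 7 and the 5, but no weight is placed on its adjusted p. A photoreceptor score as a further term gave 6 of 72 receptor genes (8.33%, beside 8.69% of all genes; 3 of them over 1.5-fold, beside 3.93% of all genes), which were CHRNE, CHRNG, GRIK3, glra4a, gabrb1 and GRIN1 (ENSDARG00000027828). The share of receptor genes that passed was thus below that of all genes without mutant replicate 1, and about equal to it with the photoreceptor term.

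**Figure D5:**
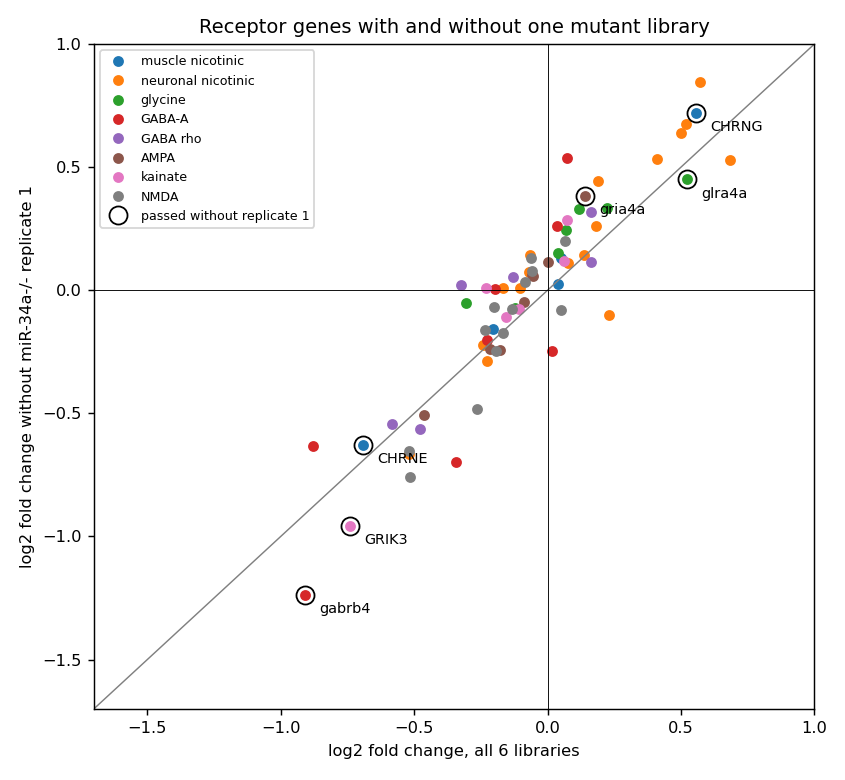
Log2 fold change (*miR-34a-/-* minus wild-type) of 70 of the 72 receptor genes tested, with all 6 libraries (horizontal axis) and without mutant replicate 1 (vertical axis). CHRNE moved from -0.69 to -0.63 and glra4a from 0.52 to 0.45, while CHRNG moved from 0.56 to 0.72 and gria4a from 0.14 to 0.38.

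Duplicated subunit genes were compared with one another. There were 25 pairs of gene IDs for 1 subunit, and in 19 both copies could be tested. The fold changes of the copies had the same sign in 12 of the 19. The split of counts between copies differed without overlap between genotypes in 3 of the 25 pairs, those of GRIA1, CHRNB1 and CHRNA9. No such share was computed for other duplicated genes. In the CHRNB1 and CHRNA9 pairs the smaller copy had few counts. CHRNB1 (ENSDARG00000022532) had 3, 4 and 4 counts in wild-type and 0, 0 and 1 in mutant libraries. For chrna9b the counts were 4, 7 and 2 in wild-type and 1, 4 and 3 in mutant libraries. The smaller GRIA1 copy (ENSDARG00000032714) was at 5.27, 5.21 and 5.04 CPM in wild-type and at 3.92, 4.60 and 2.90 CPM in mutant libraries, with an adjusted p of 0.329, while the larger copy (ENSDARG00000021352) had a log2 fold change of 0.00. How reads that match both copies were counted is not given in the sources used here, so such splits are uncertain.

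The machinery around the receptors was read from 3 further lists. Of 46 tested clustering and auxiliary proteins 0 passed in the quasi-likelihood test, the likelihood ratio test or DESeq2. At an unadjusted p under 0.05 (edgeR), 3 were lower and 1 higher, beside 7.2% and 8.14% of all genes. The median log2 fold change was -0.11. nlgn2a, a neuroligin of inhibitory synapses, was higher in each mutant library, at 25.1, 28.7 and 25.7 CPM beside 21.3, 19.9 and 23.1 CPM (log2 fold change 0.30, adjusted p = 0.176, edgeR). Its copy nlgn2b was lower in each mutant library, at 8.64, 7.43 and 5.61 CPM beside 11.2, 8.71 and 9.88 CPM (log2 fold change -0.48, unadjusted p = 0.0266, edgeR). Neither copy passed. The GPHN copies, which encode gephyrin, were at 0.03 and -0.06. Of 18 tested metabotropic receptors 0 passed in any of these tools, and the median was -0.19. At an unadjusted p under 0.05 (edgeR), 1 was lower, beside 7.2% of all genes.

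Of 32 tested genes for transmitter synthesis, release and clearance, 3 were lower and 1 higher at an unadjusted p under 0.05 (edgeR). Over all genes, 7.2% were lower and 8.14% higher at that level. Of the 32, 1 passed, beside 2.6% of all genes. SLC17A6 (ENSDARG00000041150), a vesicular glutamate transporter, was at 53.7, 48.8 and 52.5 CPM in wild-type and at 36.3, 40.7 and 40.6 CPM in mutant libraries, without overlap (log2 fold change -0.40 ± 0.08, SE, adjusted p = 0.0287, edgeR). GAD2, which makes GABA, was also lower in every mutant library, with means of 128 ± 3.14 and 105 ± 7.41 CPM (SD, n = 3), but did not pass (adjusted p = 0.0850). The median of this list was -0.10, and that of 24 tested neuronal genes, of which 0 passed (edgeR) and 2 were lower and 3 higher at an unadjusted p under 0.05, was -0.03. Without mutant replicate 1, 5 of 46 clustering and auxiliary genes, 2 of 18 metabotropic receptors, 7 of 32 transmitter genes and 6 of 24 neuronal genes passed, beside 15.6% of all genes.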

How the data were processed

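The deposited file held raw read counts by Ensembl gene ID, 1 column per library. Per the study's methods and the submitters' processing notes, reads were trimmed with Trim Galore 0.4.4 and mapped with STAR 2.7.8 to danRer11 (GRCz11). Counting mode, strand use and annotation release are not given in the sources used here.

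Counts were filtered with filterByExpr, scaled by TMM and fitted on genotype alone with edgeR 4.0.16 (quasi-likelihood test; limma 3.58.1, R 4.3.3). P-values were adjusted by Benjamini-Hochberg over all 19240 genes tested, and 0.05 was the threshold. Alternatives were DESeq2 size factors, no filter, a mean of at least 50 counts, the DESeq2 1.42.0 Wald test, the edgeR likelihood ratio test, a replicate block, a photoreceptor term and leaving out each library. The script was tested on simulated data.

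Receptor genes and companion lists were chosen with earlier results of these data known. Named genes were every receptor gene that passed, the 10 with the smallest p-values and the 2 with the highest mean CPM per class. Individual values of 2 tested genes are not reported here. Any other receptor gene named, and any gene named from a companion list, was chosen with its values in view. Lists are described by counts and medians, without a test. Symbols came from a gene name table, and RefSeq (assembly GRCz12tu) gave only gene order. The 3 counts taken as the limit of detection correspond to 0.183 to 0.292 CPM. Within a genotype, each comparison of libraries exceeded sampling noise (lowest chi-square per degree of freedom 1.78), and each library counted as 1 replicate.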

Additional observations from a re-analysis of the deposited data

How the results depend on the processing

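Over all genes, 500 passed; the likelihood ratio test gave 971, the photoreceptor term 1671 and leaving out 1 library 190 to 3022, the highest without *miR-34a-/-* replicate 1. With the replicate block 238 genes passed and CHRNE stayed at an adjusted p of 0.00982; same-numbered libraries did not deviate together (correlations of -0.067, 0.0012 and -0.18), so the numbers were not taken as pairs. Of the receptor genes 1 passed with all libraries and with the block, 2 without the filter and with DESeq2, 3 with the likelihood ratio test, 6 with the photoreceptor term and 1 to 7 when leaving out 1 library. Called at 1.5-fold were 1 with the block, 2 with the likelihood ratio test, 3 with the photoreceptor term and 1 to 5 when leaving out 1 library. The median of the receptor genes ran from -0.18 to 0.01.

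For the 21 named genes, 248 of the values under the alternatives kept direction and side of the threshold, 13 passed where the reported value did not, and 9 changed sign. All sign changes came with 1 library left out. With all libraries, the log2 fold changes of these genes lay between -0.20 (GABRB2) and 0.07 (GRIK2). On the log2 scale GABRB2 (ENSDARG00000079586) then ran from -0.43 to 0.0067, the latter without *miR-34a-/-* replicate 1, and GRIN1 (ENSDARG00000025728) from -0.24 to 0.13, above 0 without wild-type or *miR-34a-/-* replicate 1. GLRB (ENSDARG00000052769) ran from -0.029 to 0.15, below 0 without *miR-34a-/-* replicate 2 or 3, and GRIK2 from -0.11 to 0.29, below 0 without wild-type replicate 1 or *miR-34a-/-* replicate 3. GRIK5 ran from -0.025 to 0.17, below 0 without *miR-34a-/-* replicate 2, and CHRNA1 from -0.026 to 0.12, below 0 without wild-type replicate 1. The cause was not tested. At this depth and with 3 libraries per genotype, the 95% interval was within 1.5-fold for 31 of the 72 receptor genes tested.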
